A study of Drosophila melanogaster with 13 samples.

Results

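The nuclear pore and nuclear transport genes are the 34 genes whose rows, in both of the authors' deposited tables, carry a name beginning with Nup and a digit or match a list of pore, importin, exportin and Ran system symbols. They are 34 of the 8291 gene rows in the siARMI table and of the 8297 in the siYB table, and no listed symbol lacked a row. Their RNA was measured in ovarian somatic cells (OSC), a wildtype cultured line of Drosophila melanogaster derived from follicle cells, the somatic epithelium around the germline. Cells were transfected with siRNA against Armitage (siARMI, gene armi) or against Yb (siYB, gene fs(1)Yb), and control cells were given siRNA against luciferase (siLUC). Each group had 3 libraries, transfected at 0 and 48 h and harvested at 96 h, and the same siLUC libraries serve both comparisons according to the series design. Whether replicate libraries stem from separate cultures is not said in the labels, and the p-values therefore reflect the variation among these samples alone, which may be technical. A further 4 libraries of RNA labelled with 4-thiouridine were not analysed here.

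The nuclear pore complex is a ring-shaped channel through the nuclear envelope. Its scaffold is made of outer rings, built from the Y complex, and an inner ring. A central channel of proteins with phenylalanine-glycine repeats forms the permeability barrier, filaments extend on the cytoplasmic side, and a basket extends into the nucleus. Importins and exportins carry cargo through the channel, and the small GTPase Ran, loaded with GTP by Rcc1 in the nucleus, sets the direction. Precursors of piRNAs, the small RNAs that guide Piwi to transposons, leave the nucleus through these pores before they are processed in the cytoplasm. Yb organises that processing in follicle cells and Armitage is an RNA helicase that acts on the precursors. Nup358, Nup54 and Nup58 have been reported as needed for transposon silencing in the fly ovary.

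The tables give results per gene and not values per library, so each level below is a mean normalised count over the 6 libraries of a comparison. Each targeted gene had a negative estimate in its own comparison. The fold changes were read as knockdown over siLUC for that reason, so the sign is no separate check of the knockdowns. The authors' deposited table puts armi at a log2 fold change of −1.92 ± 0.07 after Armitage knockdown (± is the deposited error throughout; Benjamini-Hochberg adjusted p = 3.98e-174), and fs(1)Yb at −2.17 ± 0.51 after Yb knockdown (Benjamini-Hochberg adjusted p = 6.04e-04). After Armitage knockdown fs(1)Yb was also lower, at −0.26 ± 0.07 (Benjamini-Hochberg adjusted p = 9.03e-04, per the authors' deposited table). In the annotation of BDGP6.54, 99.6% of the exonic length of armi overlaps CG46463 on the same strand, so reads of these 2 genes may not be told apart. Of the 5 follicle cell markers, tj and zfh1 had mean normalised counts of 5825 and 7939 in the authors' deposited siARMI table. After Armitage knockdown Fas3 (2.13 ± 0.18) and eya (1.15 ± 0.11) rose, tj (−0.30 ± 0.07) and zfh1 (−0.23 ± 0.08) fell, and br stood at −0.04 ± 0.09 without passing the test, per the authors' deposited table. The germ cell markers vas, aub and bam had mean normalised counts of 2.29 to 6.34 in the authors' deposited siARMI table, and none of these 3 passed the test. The hemocyte factor srp rose by 1.05 ± 0.19, and of 3 muscle markers Mhc rose by 1.08 ± 0.27 while Act57B and Mlc2 did not pass, per the authors' deposited table. The germ cell marker nos and the hemocyte markers Hml and NimC1 were not analysed, because a row under these names was not found in each of the deposited tables. The part of these markers in the changes of the pore genes was not tested.

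All 34 genes were expressed in these cells, and all but Nup188 lay above the median gene in transcript level per length in the siARMI table. Levels were compared as mean normalised count per kb of the longest annotated transcript, on the scale of each table. Ran had the highest level, with 2018 per kb in the siARMI table and 588 per kb in the siYB table, followed by Nup98-96 with 1041 and 312 per kb. Nup98-96 encodes a precursor that is cut into Nup98, a mobile channel protein, and Nup96, a subunit of the Y complex. Kap-alpha3, an importin alpha, had 855 and 216 per kb, and the exportin gene emb, the fly CRM1, had 751 and 206 per kb. At the low end, Nup188 of the inner ring had 97.5 per kb in the siARMI table and 29.5 per kb in the siYB table, and Mtor, which encodes the basket protein Megator, had 132 and 33.7 per kb. The median over gene rows with an annotated transcript was 106.7 per kb in the siARMI table and 29.3 per kb in the siYB table, and 33 and 34 of the 34 genes lay above it. The summed mean counts of the siARMI table are 3.78 times those of the siYB table, and levels are read within a table only.

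**Figure D1:**
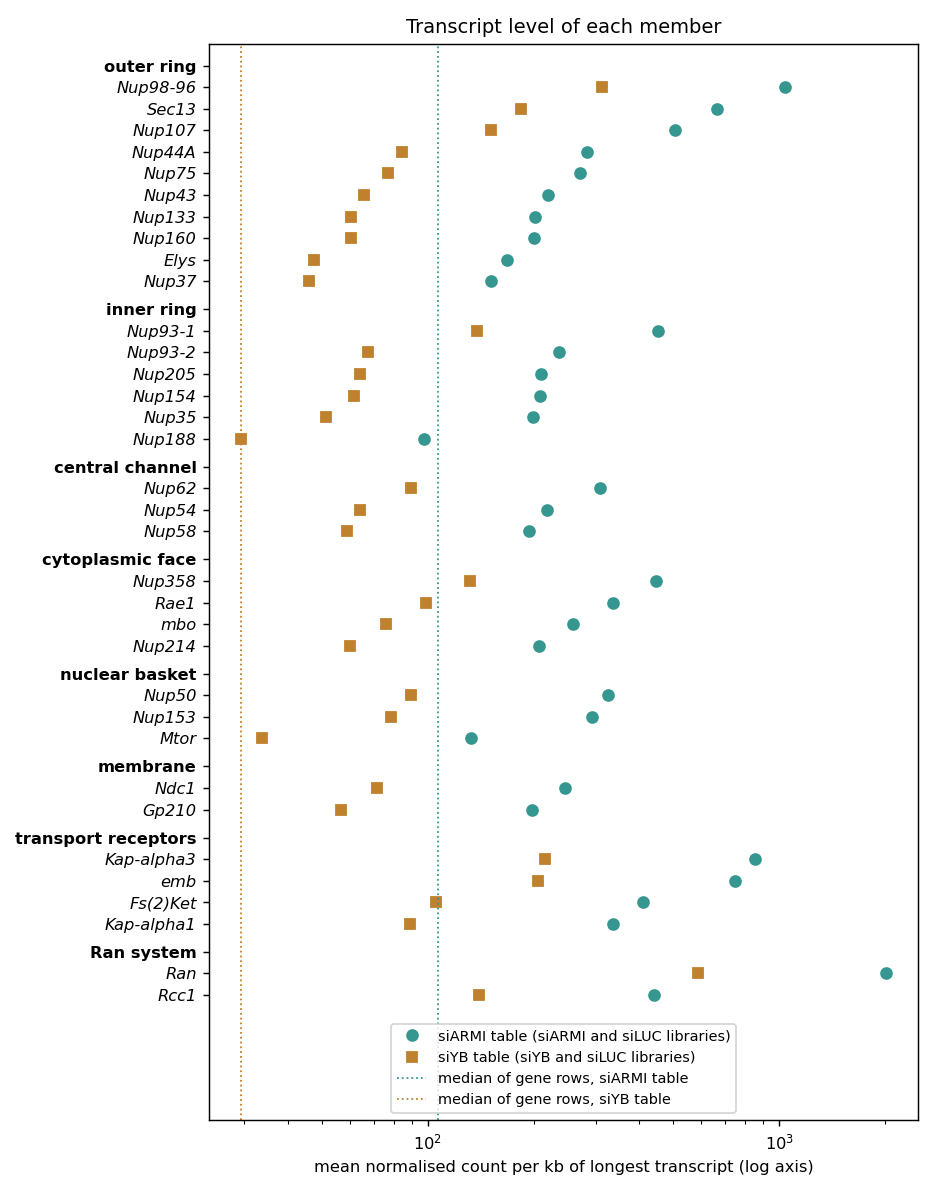
Mean normalised count per kb of the longest transcript (log axis) for the 34 genes, grouped by role, with circles for the siARMI table, squares for the siYB table and dotted lines at the median of gene rows in each. Ran, at 2018 per kb in the siARMI table, stands highest, and Nup188, at 97.5 per kb, is the 1 gene below the siARMI median.

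After Armitage knockdown 18 of the 34 genes were called lower and 1 higher, while the other 15 did not pass. Calls are at an adjusted p under 0.05 in the authors' deposited table. Over all 8473 rows tested 13.4% were called lower, 15.2% higher and 28.6% in either direction. An unadjusted p under 0.05 was found for 23 of the 34 genes and for 37.3% of all rows. Among the 4146 gene rows at or above the median mean count, where 33 of the 34 genes lie, the shares were 18.8% and 19.7%. The median log2 fold change of the 34 genes was −0.23, a level of 85.0% of that in siLUC cells, against a median of −0.01 over all gene rows and 0.01 over gene rows at or above the median mean count. In these bulk samples, fewer cells of a type and less RNA per cell cannot be told apart. Of the 34 estimates 29 were negative, against 51.1% of all gene rows. The changes were modest, and none of the 34 genes reached an absolute log2 fold change of 1. The estimates ran from −0.57 to 0.24, with deposited errors of 0.06 to 0.15, and were taken as shrunk toward 0 by the authors.

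**Figure D2:**
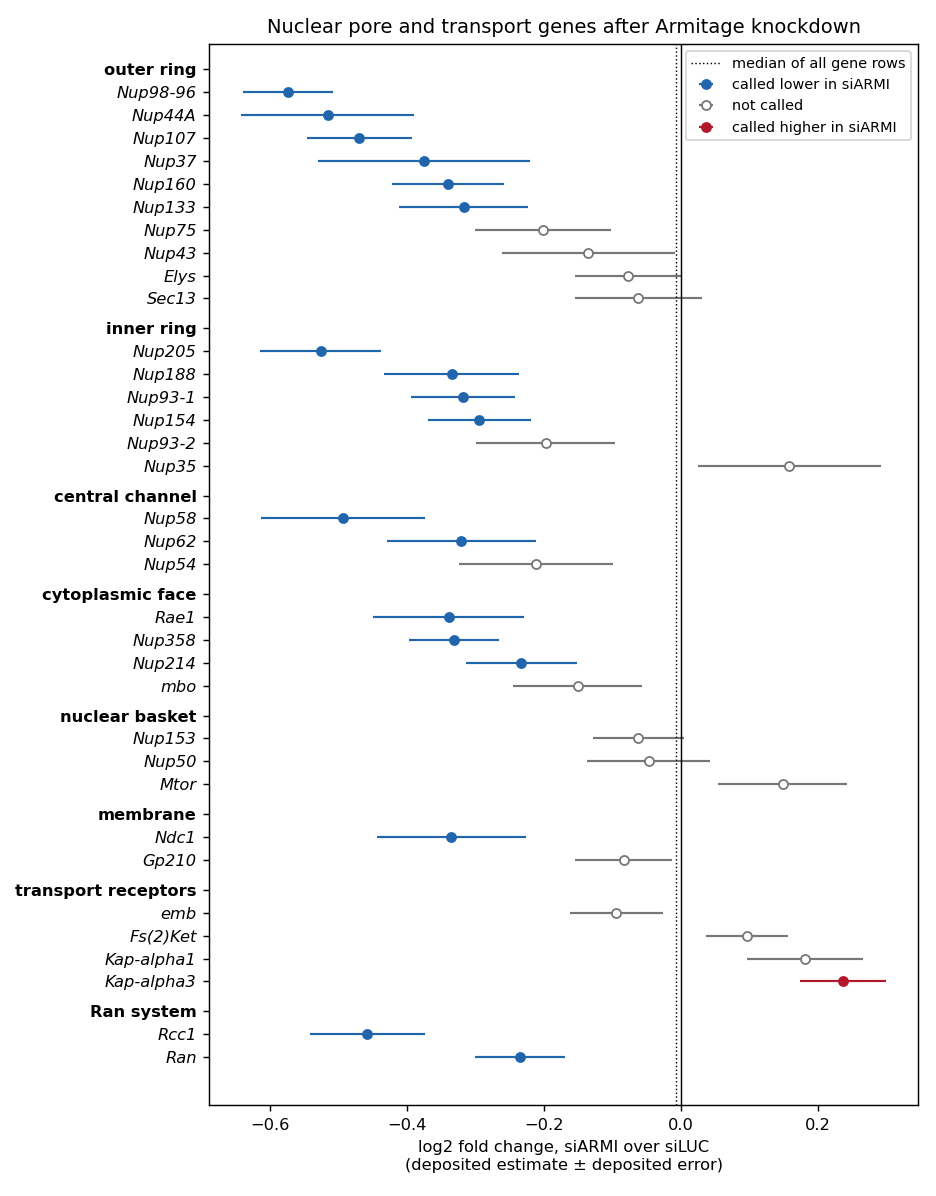
Log2 fold change of siARMI over siLUC (deposited estimate ± deposited error) for the 34 genes by role, filled blue where called lower, filled red where called higher and open where not called; the dotted line is the median of all gene rows. All 10 outer ring genes lie below 0, and 3 of the 4 transport receptors lie above it.

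The outer ring had 6 genes of 10 that fell and 4 that did not pass, and its median log2 fold change was −0.33. Nup98-96 had a mean normalised count of 6895 and fell to 67.2% of its level in siLUC cells, with a log2 fold change of −0.57 ± 0.07 per the authors' deposited table (Benjamini-Hochberg adjusted p = 1.96e-17). It showed the lowest estimate of the 34 genes, and 5.23% of all gene rows were more negative. Nup98-96 lies on chromosome 3R, 23774225 to 23781621, minus strand (annotation of BDGP6.54). Nup44A, the fly Seh1, stood at −0.52 ± 0.13 (Benjamini-Hochberg adjusted p = 1.43e-04) and Nup107, a stem subunit of the Y complex, at −0.47 ± 0.08 (Benjamini-Hochberg adjusted p = 7.05e-09) per the authors' deposited table. These correspond to 69.9% and 72.2% of the siLUC level. Nup160 and Nup133, which also belong to the Y complex, were lower at −0.34 ± 0.08 and −0.32 ± 0.09 per the authors' deposited table (Benjamini-Hochberg adjusted p = 1.77e-04 and 0.00313).

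Nup37 was the member of the outer ring that passed by the least, at −0.37 ± 0.15 with a mean normalised count of 173, the lowest of the 34 genes (Benjamini-Hochberg adjusted p = 0.0335, per the authors' deposited table). With a normal p from the deposited estimate and error its adjusted p was 0.0605. The other outer ring genes did not pass. Nup75, the fly Nup85, stood at −0.20 ± 0.10 and Nup43 at −0.14 ± 0.13 per the authors' deposited table. Elys, which recruits the Y complex to chromatin, stood at −0.08 ± 0.08 and Sec13, which is shared with the COPII vesicle coat, at −0.06 ± 0.09 per the authors' deposited table. For Sec13 the 95% interval of the estimate, from the normal distribution and the deposited error, ran from −0.24 to 0.12.

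The inner ring had 4 genes of 6 that fell and 2 that did not pass, and its median log2 fold change was −0.31. Nup205, a large scaffold subunit, was lower at −0.53 ± 0.09, or 69.5% of its siLUC level, per the authors' deposited table (Benjamini-Hochberg adjusted p = 1.78e-08). Its paralogue Nup188 stood at −0.33 ± 0.10 (Benjamini-Hochberg adjusted p = 0.00258) per the authors' deposited table. Nup93-1, which anchors the channel proteins to the ring, was lower at −0.32 ± 0.08 (Benjamini-Hochberg adjusted p = 1.58e-04) and Nup154, the fly Nup155, at −0.29 ± 0.08 (Benjamini-Hochberg adjusted p = 4.80e-04) per the authors' deposited table. The second Nup93 gene, Nup93-2, stood at −0.20 ± 0.10 without passing (Benjamini-Hochberg adjusted p = 0.122, per the authors' deposited table). Nup35 was the 1 scaffold gene with a positive estimate, 0.16 ± 0.13 with a 95% interval of −0.10 to 0.42, and did not pass per the authors' deposited table.

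The 3 channel genes Nup62, Nup58 and Nup54 encode a trimer that lines the central channel, and 2 of them fell. Nup58 was lower at −0.49 ± 0.12, or 71.1% of its siLUC level (Benjamini-Hochberg adjusted p = 1.39e-04), and Nup62 at −0.32 ± 0.11 (Benjamini-Hochberg adjusted p = 0.0106), per the authors' deposited table. Nup54 stood at −0.21 ± 0.11 and did not pass (Benjamini-Hochberg adjusted p = 0.132, per the authors' deposited table). Their levels ran from 194 per kb for Nup58 to 310 per kb for Nup62 in the siARMI table.

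On the cytoplasmic face 3 of 4 genes fell. Nup358, the fly RanBP2, which forms the filaments and binds Ran, had a mean normalised count of 3812 and was lower at −0.33 ± 0.07 per the authors' deposited table (Benjamini-Hochberg adjusted p = 2.77e-06). Rae1, an mRNA export factor that binds Nup98, stood at −0.34 ± 0.11 (Benjamini-Hochberg adjusted p = 0.00701) and Nup214, at the base of the filaments, at −0.23 ± 0.08 (Benjamini-Hochberg adjusted p = 0.0160) per the authors' deposited table. The partner of Nup214, mbo, which is the fly Nup88, stood at −0.15 ± 0.09 and did not pass per the authors' deposited table. Nup358 and Nup37 are neighbours on the plus strand of chromosome 3R. Nup37 spans 25247658 to 25249100 and Nup358 spans 25249348 to 25258672 in the annotation of BDGP6.54, with 247 bases between them.

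None of the 3 basket genes passed the test. Nup153 stood at −0.06 ± 0.07, Nup50 at −0.05 ± 0.09 and Mtor at 0.15 ± 0.09 per the authors' deposited table, with adjusted p of 0.533, 0.745 and 0.235 (Benjamini-Hochberg). The 95% interval was −0.19 to 0.07 for Nup153, −0.22 to 0.13 for Nup50 and −0.04 to 0.33 for Mtor. With 3 genes and 13.4% of all rows called lower, a count of 0 is near the background, and a difference between basket and ring genes was not tested. Of the membrane proteins that anchor the pore, Ndc1 was lower at −0.33 ± 0.11 (Benjamini-Hochberg adjusted p = 0.00700) and Gp210 stood at −0.08 ± 0.07 without passing per the authors' deposited table.

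**Figure D3:**
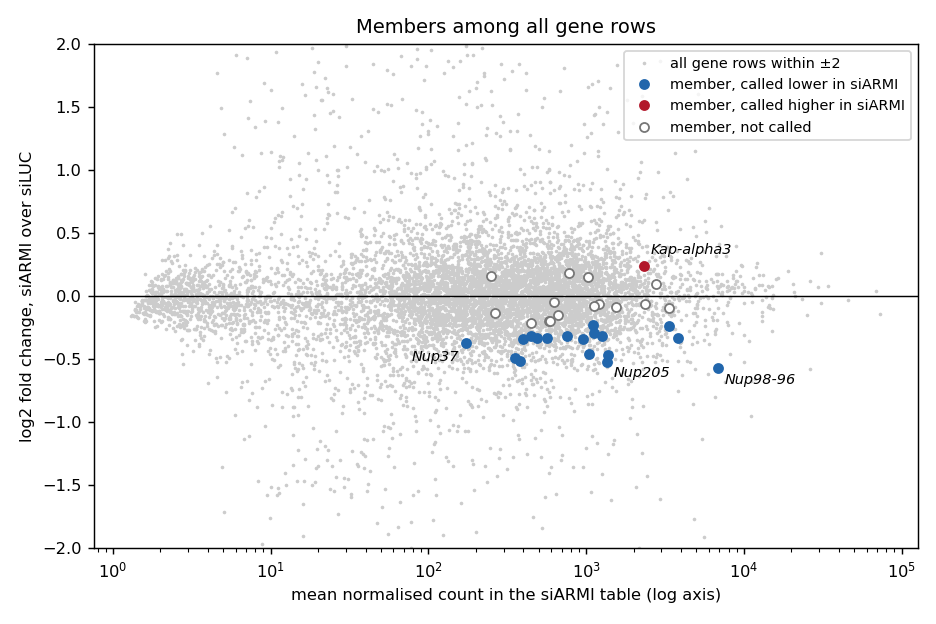
Log2 fold change of siARMI over siLUC against mean normalised count (log axis) for all gene rows within ±2 (grey; 189 rows lie beyond) and for the 34 genes, coloured by call. The genes called lower run from a mean count of 173 (Nup37) to 6895 (Nup98-96) and lie within the cloud of other genes.

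Among the transport receptors and the Ran system, 1 gene rose and 2 fell. Of the 4 receptor genes 0 fell, 1 rose and 3 did not pass, counts that are also near the background. Kap-alpha3 rose to 118% of its siLUC level, at 0.24 ± 0.06 per the authors' deposited table (Benjamini-Hochberg adjusted p = 9.62e-04), and was the 1 gene of the 34 called higher. It lies on chromosome 3R, 9574484 to 9577733, minus strand (BDGP6.54). The other importin alpha gene of the set, Kap-alpha1, stood at 0.18 ± 0.09 (Benjamini-Hochberg adjusted p = 0.0875) and Fs(2)Ket, the importin beta gene, at 0.10 ± 0.06 (Benjamini-Hochberg adjusted p = 0.235) per the authors' deposited table. The exportin gene emb stood at −0.09 ± 0.07 (Benjamini-Hochberg adjusted p = 0.317) per the authors' deposited table. Both Ran system genes fell. Rcc1, the exchange factor, was lower at −0.46 ± 0.08, or 72.8% of its siLUC level (Benjamini-Hochberg adjusted p = 3.47e-07), and Ran at −0.24 ± 0.07 (Benjamini-Hochberg adjusted p = 0.00171) per the authors' deposited table.

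The 15 genes that did not pass included 4 with an unadjusted p under 0.05 per the authors' deposited table, namely Nup75, Nup93-2, Nup54 and Kap-alpha1. Of the 15, 11 had negative estimates, and their 95% intervals reached no lower than −0.43 and no higher than 0.42. Across the 34 genes, which share libraries, Spearman's rho was 0.13 between the log2 fold change and the mean normalised count and 0.13 with transcript length, against 0.05 and 0.05 over gene rows. The genes lie on 5 chromosome arms, and those called lower were 3 of 5 on 2L, 5 of 10 on 2R, 1 of 2 on 3L, 6 of 11 on 3R and 3 of 6 on X. Shares over all gene rows of each arm are not given here, and the spread over arms was not tested. Exons of 12 of the 34 genes overlap those of a gene on the opposite strand, and 0 overlap one on the same strand. The kit keeps strand, and the strand setting of the counting is not given in the sources used here. Among the genes called lower, the overlap covered 19.9% of the exonic length of Nup154 (with Art8), 8.5% of Nup160 (with RfC38), and 3.3% of Ndc1, 0.7% of Rae1 and 0.6% of Nup107, so their counts are less certain. Among the genes that did not pass, the largest overlaps were 27.6% for Nup93-2 (with CG14860), 10.6% for Nup54 and 7.5% for Nup35. The same uncertainty holds for these. Among the 22 genes with no such overlap 13 fell and 1 rose. Over all rows 13.4% were called lower and 15.2% higher, and the shares among all gene rows without overlap are not given here.

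Of 22 further receptors, adaptors, Ran regulators and peripheral pore proteins 6 fell, 1 rose and 15 did not pass after Armitage knockdown per the authors' deposited table, with a median log2 fold change of −0.05. The share called lower was 27.3%, against 13.4% of all rows and 18.8% of gene rows at or above the median mean count, and the 1 gene called higher stands against 15.2% of all rows. RanGAP, which makes Ran hydrolyse its GTP in the cytoplasm, was lower at −0.36 ± 0.09 (Benjamini-Hochberg adjusted p = 2.05e-04) and Cse1, which returns importin alpha to the cytoplasm, at −0.35 ± 0.08 (Benjamini-Hochberg adjusted p = 5.90e-05) per the authors' deposited table. Ranbp21, the fly exportin-5, stood at −0.37 ± 0.08, Arts at −0.29 ± 0.07, Impbeta11 at −0.26 ± 0.08 and Gle1, an mRNA export factor at the pore, at −0.29 ± 0.12 per the authors' deposited table, each passing the test. Arts has a close duplicate, Apl, and 63.9% of the exonic length of Impbeta11 overlaps genes on the opposite strand, so both counts are uncertain. The gene ebo, the fly exportin-6, rose by 0.23 ± 0.08 per the authors' deposited table (Benjamini-Hochberg adjusted p = 0.0132). Several abundant import receptors did not pass and had narrow intervals, with Pen, a further importin alpha, at 0.02 ± 0.06, Karybeta3 at 0.03 ± 0.06 and msk, the fly importin-7, at −0.03 ± 0.06 per the authors' deposited table.

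Of 12 genes of the nuclear lamina and envelope, 1 fell, 3 rose and 8 did not pass after Armitage knockdown per the authors' deposited table, with a median log2 fold change of 0.01. With 13.4% of all rows called lower and 15.2% higher, these counts are near the background, and their difference from the pore genes was not tested. LamC, the A-type lamin, rose by 1.63 ± 0.09 (Benjamini-Hochberg adjusted p = 2.15e-68), while Lam, the B-type lamin, stood at −0.15 ± 0.08 without passing, per the authors' deposited table. The SUN domain gene koi and the envelope gene kuk rose by 0.25 ± 0.08 and 0.24 ± 0.07 per the authors' deposited table. The lamin B receptor gene LBR was lower at −0.36 ± 0.08 (Benjamini-Hochberg adjusted p = 2.53e-05) per the authors' deposited table.

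After Yb knockdown 0 of the 34 genes were called per the authors' deposited table, and 0 had an unadjusted p under 0.05. Over all 8478 rows tested 0.0472% were called lower and 0.142% higher, and 0.778% had an unadjusted p under 0.05. The unadjusted p of the 34 genes ran from 0.453 for Nup98-96 to 0.987 for Nup188, with a median of 0.903, against a median of 0.724 over all rows of the authors' deposited table. The deposited estimates of all 34 had been shrunk to 0, with none above 2.48e-05 in absolute size, and hold no size of change. None of the other 22 transport genes or the 12 envelope genes was called either, and LamC had the lowest unadjusted p of them at 0.0977 per the authors' deposited table. In the 22 rows whose estimate was kept, the deposited error was 0.46 to 1.82, at least 2.94 times the largest error of the 34 genes in the siARMI table. None of the 34 genes is among those 22 rows, which include transposons, so the ratio compares different rows and not the precision of the tables alone. The siYB table gives no usable error, and so no detection limit, for the 34 genes. The absence of calls does not show that they did not change. Mean counts in the siARMI table summed to 3.78 times those in the siYB table. Whether the siYB libraries were sequenced less deeply was not tested. The difference between the knockdowns was not tested.

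An estimate of the siYB change, chosen after seeing the data, was rebuilt from the means of both tables. Each mean covers 1 knockdown group and the siLUC group, so the siARMI log2 fold change gives the siLUC level and the siYB mean then gives the siYB level. This takes the siLUC libraries as the same in both tables, sets the median gene to no change, and carries no error of its own. In the 22 rows with a kept estimate the rebuilt value had the deposited sign in 22, with a median absolute difference of 0.14 and differences of −0.51 to 0.91. It read −1.54 for fs(1)Yb, which the authors' deposited table lists at −2.17. It read 0.31 for armi, whose deposited siYB estimate is shrunk to 0 with a negative sign.

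For the 34 genes the rebuilt log2 fold changes of siYB over siLUC had a median of 0.00 and ran from −0.21 for Nup98-96 to 0.17 for Nup43, with 18 below 0 and 16 above. Nup44A read −0.20, Nup205 −0.13, Nup107 −0.12 and Nup58 −0.11, while Rcc1 read 0.06 and Nup358 −0.03. These values are calculated from the siARMI log2 fold changes and share the siLUC libraries with them. A gene that reads low in both is therefore not a separate observation in a second knockdown. All 34 lay within −0.33 to 0.39, the central 95% of 4146 gene rows at or above the median mean count. That range also covers −0.23, the median siARMI log2 fold change of the 34 genes. Lying within it therefore does not tell no change from a change of that size. The rebuilt sign matched that of the shrunken deposited estimate in 23 of the 34 genes and in 71.9% of those gene rows, so the sign of any single value is uncertain.

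**Figure D4:**
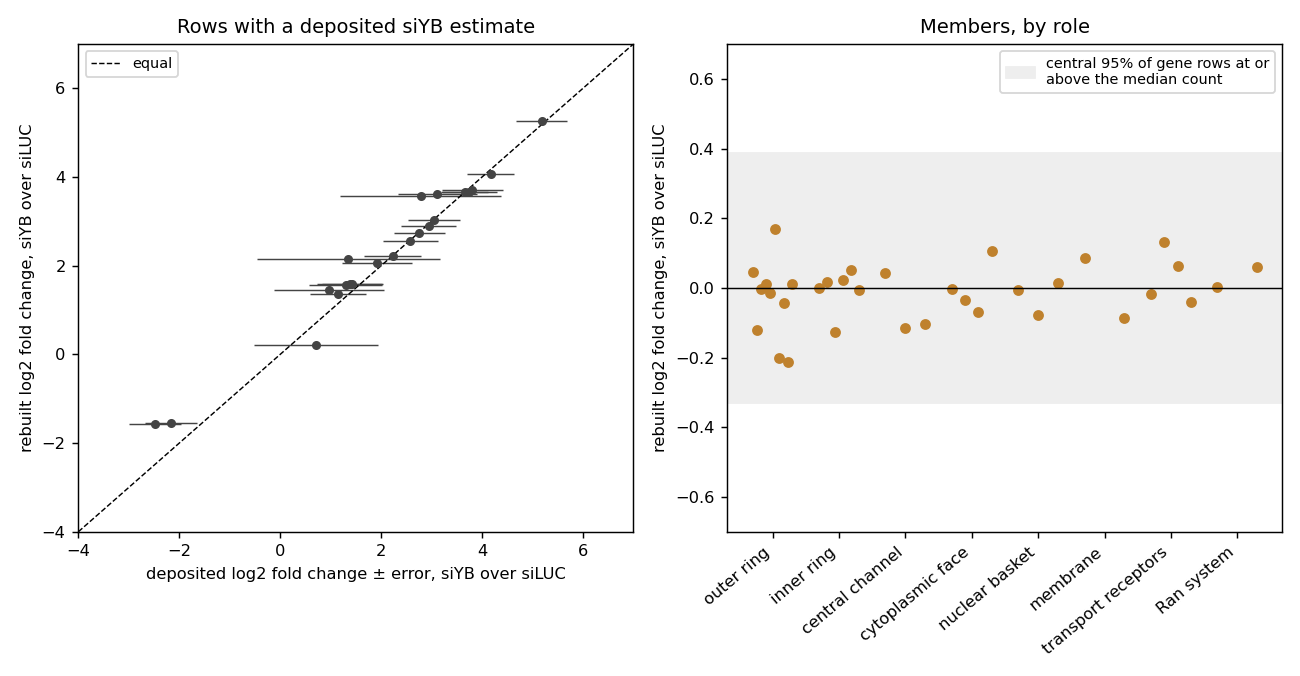
Left, rebuilt against deposited log2 fold change of siYB over siLUC for the 22 rows with a kept estimate (horizontal bars, deposited error; dashed line, equal values); right, rebuilt log2 fold change of the 34 genes by role (points) over the central 95% of gene rows at or above the median mean count (grey band, −0.33 to 0.39). Rebuilt and deposited values differ by −0.51 to 0.91, the 2 negative rows read nearer 0 when rebuilt, and all 34 genes fall inside the band. The band also covers −0.23, the median siARMI log2 fold change of the 34 genes.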

How the data were processed

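Poly(A)-selected RNA of 3 siARMI, 3 siYB and 3 siLUC libraries was sequenced after preparation with a directional kit, per the labels' protocols; the tag RZ in the sample titles is not explained there. Among the tools in the submitters' processing notes are Salmon 1.7.0, STAR and DESeq2, named by the authors without roles. The genome build was not given in the sources used here. Per the file headers, each of the authors' deposited tables holds a mean normalised count per row (a signal over the 6 libraries on the table's own scale), a log2 fold change, its error and p-values before and after adjustment. The log2 fold changes were taken as shrunk by the authors, because dividing them by the error and taking a normal p misses the deposited p-value, and were read as knockdown over siLUC because each targeted gene is negative in its own table.

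No values per library were used, so count tests were not run and depth per library is unknown. A row was called at a deposited adjusted p under 0.05. The deposited adjusted p equals Benjamini-Hochberg over all rows of a table (recomputed). Of each table, 2 rows without a p-value were left out of tests. Gene names were matched to the annotation of BDGP6.54 (Ensembl release 115) by symbol, with Mtor matched as Mgtor (97.6% of siARMI gene rows matched). Ranbp9, Ranbp11, arts and Ranbp3 were read as Ipo9, Impbeta11, Arts and RanBP3. Alternatives were another threshold, adjustment, filter, p-value, size limit and centring. The rebuilt siYB estimate and the count without overlapping genes were chosen after seeing the data. The genes, lists and roles were chosen with earlier results of these data known. Every gene of the set is named, and of the transport and envelope lists those past the test. Pen, Karybeta3, msk, Tnpo, Ipo9 and Lam were named after their values were seen. Python 3.11.15, scipy 1.17.1 and pandas 2.3.3 were used.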

Additional observations from a re-analysis of the deposited data

How the results depend on the processing

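For the 34 genes after Armitage knockdown, the count called lower stayed within 1.5 times of 18 under every alternative tried except Holm adjustment, which left 5 lower and 0 higher. The count called higher, 1, became 0 under a size limit of 0.3 on the absolute log2 fold change, and 2 with a threshold of 0.1. The other 22 transport genes had 2 lower and 0 higher under Holm, 3 lower and 0 higher with the size limit, and 0 higher at 0.01 but 3 at 0.1. The 12 envelope genes had 1 higher under Holm and 1 with the size limit. Shares of all rows called at these other settings are not given here, so these counts stand without a background. Adjusting over gene rows only, or over rows at or above the lower quartile of the mean count, left calls unchanged. This covers the 34 genes and the transport and envelope genes past the test. The normal p from the deposited estimate and error ended the calls of Nup37 and Gle1. The median log2 fold change of the 34 genes kept its sign under each centring. At −0.23, its sign could not change with the gene medians of −0.01 and 0.01. After Yb knockdown the counts were 0 under every alternative tried. The lowest unadjusted p, per the authors' deposited table, was 0.453 among the 34 genes and 0.0977 among the other lists. These alternatives could therefore give no call. No paired analysis was possible because the deposited tables hold no values per library, and for the same reason leaving out single replicates was not run. Depth per library is unknown.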
